A study of Rattus norvegicus with 12 samples.

Results

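The genus-level taxon [Eubacterium]_coprostanoligenes_group was described across 12 16S rRNA gene libraries of rat faeces. Its members are the amplicon sequence variants (ASVs, distinct 16S sequences inferred from the reads) whose deposited lineage carries that genus name, and they number 61 of the 7240 ASVs in the table. They are written here as ECG1 to ECG61, ordered by mean share over the libraries. The genus was chosen by its summed share in the 4 groups and by the turnover of its ASVs, with results of these data known. Both are therefore given as a description. Member ASVs were part of fits over the whole table, and the number called is printed only beside the share called over all ASVs and supports nothing.

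The groups hold 3 libraries each. Sham stands for rats that had the sham operation. SAH stands for rats with experimentally induced subarachnoid haemorrhage, a bleed into the space around the brain. SAH+Tet rats had the haemorrhage and tetrandrine, a bisbenzylisoquinoline alkaloid that blocks calcium channels. SAH+Tet+ABX rats had the haemorrhage, tetrandrine and ABX, which is the usual abbreviation for antibiotics. Strain, age, doses, the antibiotics, the times of treatment and sampling, and whether each library is a separate animal are all not given in the sources read here. Every sample also carries a treatment label for adipogenic differentiation, which does not vary between groups and plays no part here. The p-values below measure the spread between these libraries, which may be technical. The series set out to compare the gut microbiota of these groups, and its title names CYP51, a demethylase of sterol synthesis.

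Cholesterol that reaches the large intestine can be reduced by gut bacteria to coprostanol, a sterol that is poorly absorbed and leaves with the faeces. Eubacterium coprostanoligenes, the species after which the group is named, is known for this reaction, and relatives known mostly from their 16S sequences are placed around it in the order Oscillospirales of the Firmicutes. An ASV is a sequence rather than a strain, and the number of ASVs need not equal the number of strains. The share of a genus can be carried by different ASVs in different libraries. No sterol was measured in these data, and the link of these ASVs to cholesterol rests on the name alone. The lineages of all 61 ASVs gave Oscillospirales as the order and repeated the group's name as the family. Only 12 carried a species label, which was uncultured_bacterium for 10 and uncultured_Clostridium for 2.

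Library totals ran from 211450 to 531426 reads, with 5 libraries of at most 248285 reads (the lower depth class) and 7 of at least 448795 (the higher depth class). Every SAH+Tet+ABX library is in the lower class, together with SAH 1 and SAH+Tet 3. The genus had 1819 to 9467 reads in a library and 63473 in all. Where an ASV had 0 reads, its share could still be up to 3 reads of the library, which is 0.000565% to 0.00142%. The 95% exact binomial (Clopper-Pearson) interval of a summed share reached at most 0.0506 percentage points to either side. These limits hold for counting error alone, since reads copied by PCR are not independent. No bacterial load was measured, so fewer cells of the genus and more cells of other taxa cannot be told apart.

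The genus took about the same share of reads in every group. In Sham the summed share of its ASVs was 1.10%, 1.90% and 1.14% of the library. In SAH it was 0.989%, 1.30% and 1.83%. The libraries of these groups overlapped over most of their ranges. In SAH+Tet it was 1.47%, 1.38% and 0.800%, and in SAH+Tet+ABX 1.14%, 1.57% and 1.32%. SAH+Tet 3 was the lowest of all libraries and Sham 2 the highest, a 2.37-fold span. SAH 1 and SAH+Tet 3, the libraries of the lower depth class in their groups, were each the lowest of their group, and the part of depth in this was not tested.

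The mean of Sham was 1.38% ± 0.450 (SD, n = 3 here and for each mean below), that of SAH 1.37% ± 0.426, that of SAH+Tet 1.22% ± 0.365 and that of SAH+Tet+ABX 1.34% ± 0.216. The highest mean was 1.13 times the lowest. The SD of the 4 group means was 0.0753 percentage points, against a pooled SD of 0.375 among libraries of the same group. No pair of neighbouring means therefore differed beyond the spread of its libraries. SAH minus Sham was -0.00762 points (log2 ratio of means -0.008), SAH+Tet minus SAH -0.154 points (log2 ratio -0.17) and SAH+Tet+ABX minus SAH+Tet 0.126 points (log2 ratio 0.14).

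The scale matters for the size and the direction of these differences. With edgeR's TMM scaling, a trimmed mean of log ratios between libraries, the log2 fold change of the genus was 0.15 ± 0.39 (SE) for SAH against Sham, -0.23 ± 0.39 between SAH+Tet and SAH, and 0.25 ± 0.46 between the group with antibiotics and SAH+Tet. With centred log-ratios, which set a library's values against the mean of its log counts, the same differences were -0.50 ± 0.66, -0.10 ± 0.66 and 2.50 ± 0.67 (limma SE). With DESeq2 size factors the last was 0.81 ± 0.33. The sign for SAH against Sham thus turned with the scaling. Of the 192 genus-level features tested with reads in SAH+Tet or SAH+Tet+ABX, 128 had a lower mean share with antibiotics. The median log2 fold change over the 195 features tested was -1.70 with TMM, -1.16 with DESeq2 size factors and -0.03 with centred log-ratios.

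That surrounding change is visible in the order to which the genus belongs. Oscillospirales without the genus held 14.0% ± 2.87 of Sham reads, 10.5% ± 1.39 of SAH reads and 15.4% ± 1.03 of SAH+Tet reads. In SAH+Tet+ABX they held 5.44% ± 2.04. The genus itself was not lower there, and its share of Oscillospirales reads was 23.6%, 24.1% and 14.7% in the SAH+Tet+ABX libraries (mean 20.8% ± 5.32). The means of the other groups were 9.31% ± 4.14 in Sham, 11.7% ± 3.50 in SAH and 7.32% ± 1.98 in SAH+Tet. Its share of Firmicutes reads was 2.17% ± 0.809 with antibiotics, against 1.89% ± 0.782 for Sham, 2.17% ± 0.943 for SAH and 1.78% ± 0.585 for SAH+Tet.

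**Figure D1:**
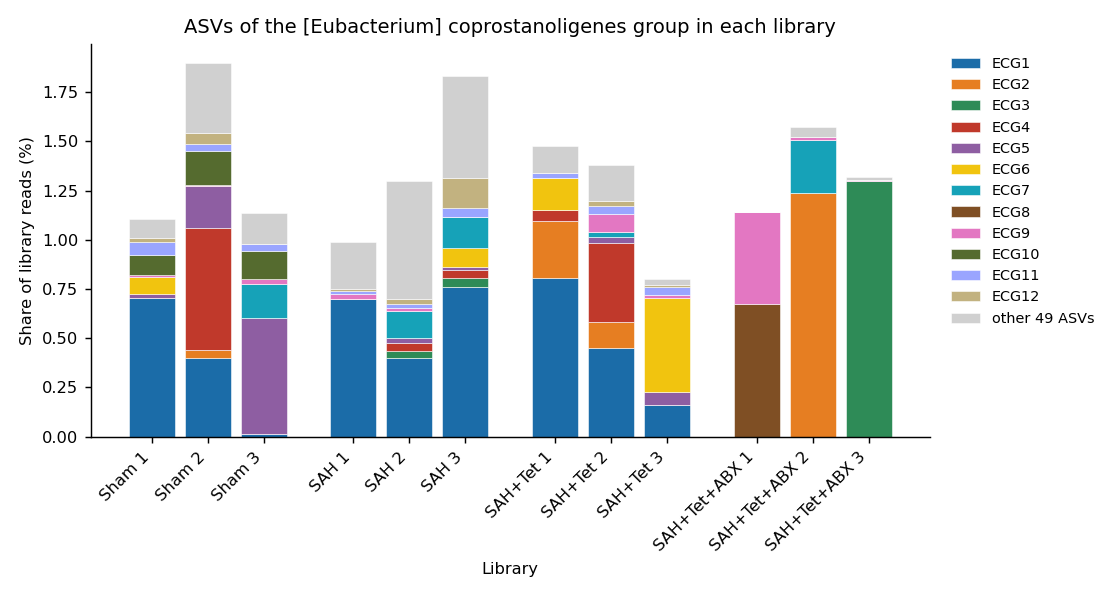
Share of library reads (%) held by the genus in each of the 12 libraries, stacked by ASV: the 12 ASVs with the highest mean share in colour and the other 49 in grey. The bars are of like height in the 4 groups (means 1.22% to 1.38%), while the colours that fill them differ between libraries, and ECG1, the largest block in 6 of the 9 libraries without antibiotics, is missing from all 3 SAH+Tet+ABX libraries.

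Beneath this sum the ASVs turned over. Of the 61 ASVs, 29 were found in 1 library only, 5 in 2 and 27 in 3 or more. None was found in all 12 libraries, and the most widespread, ECG9, was found in 10. By group, 33 ASVs were found in 1 group, 13 in 2, 12 in 3 and 3 in all 4 groups (ECG7, ECG9 and ECG12). Many of the rare ones rest on few reads: 21 ASVs had fewer than 10 reads over the whole series, 52 reads together. Of the 29 found in 1 library only, 18 had 1 to 3 reads. At least 10 reads in at least 3 libraries were reached by 23 of the 61 members and by 2394 of all 7238 ASVs. The counts by library and group here, and of ASVs shared between groups below, were not taken over all ASVs. Nothing particular to the genus is therefore read from them. The 10 leading ASVs held 78.3% of the reads of the genus.

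ECG1 was the main variant wherever antibiotics were not given, apart from 3 libraries. Its share of the library was 0.706%, 0.399% and 0.0154% in Sham, 0.702%, 0.401% and 0.760% in SAH, and 0.808%, 0.452% and 0.160% in SAH+Tet. In the SAH+Tet+ABX libraries it had 0 reads. It led the genus in Sham 1, in all 3 SAH libraries and in SAH+Tet 1 and 2, with 30.9% to 70.9% of the genus's reads. In Sham 3 it held only 80 reads.

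The 3 other libraries without antibiotics had leaders of their own. ECG4 led Sham 2 with 0.622% of the library and reached 0.400% in SAH+Tet 2. Elsewhere it was at 0.0382% and 0.0423% in SAH 2 and SAH 3, at 0.0515% in SAH+Tet 1 and at 0 reads in the other 7 libraries. ECG4 was therefore abundant in 1 library of Sham and 1 of SAH+Tet, not in a group.

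ECG5 led Sham 3 with 0.588% of the library. It was at 0.213% in Sham 2 and at 0.0181% in Sham 1, and its 3 Sham libraries thus spanned more than any other group. It had 0.0286% and 0.0174% in SAH 2 and SAH 3, and 0.0306% and 0.0660% in SAH+Tet 2 and SAH+Tet 3. It had 0 reads with antibiotics, and likewise in SAH 1 and SAH+Tet 1. ECG6 led SAH+Tet 3, the shallowest library without antibiotics, with 0.480%, and was at 0.0855% in Sham 1, 0.0938% in SAH 3 and 0.164% in SAH+Tet 1. It had 0 reads in the other 8 libraries, so that each group without antibiotics held at least 1 library in which it was not detected.

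In SAH+Tet+ABX each library had another leading ASV. SAH+Tet+ABX 1 held only 2 member ASVs, ECG8 with 59.0% of the genus's reads and ECG9 with 41.0%. SAH+Tet+ABX 2 was led by ECG2 with 78.9%, followed by ECG7 with 17.1%. In SAH+Tet+ABX 3, ECG3 held 98.2%. The near-constant sum of this group was thus made of 3 different variants.

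These variants had different records in the other groups. ECG8 was found in no other library. ECG2 was at 1.24% of library reads in SAH+Tet+ABX 2, at 0.290% and 0.129% in SAH+Tet 1 and 2 and at 0.0393% in Sham 2, with 0 reads in all SAH libraries. ECG3 was at 1.30% in SAH+Tet+ABX 3 and otherwise only in SAH 2 (0.0354%) and SAH 3 (0.0439%). ECG2 and ECG3 were thus known from libraries without antibiotics at lower shares, and ECG8 was not.

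ECG7 and ECG9 were the minor partners in the antibiotic libraries. ECG7 was at 0.269% in SAH+Tet+ABX 2, at 0.173% in Sham 3, at 0.136% and 0.159% in SAH 2 and SAH 3 and at 0.0283% in SAH+Tet 2, with 0 reads in the other 7 libraries. ECG9 was at 0.0103%, 0.00582% and 0.0267% in Sham, at 0.0254%, 0.0126% and 0 in SAH, and at 0, 0.0921% and 0.0132% in SAH+Tet. In SAH+Tet+ABX it was at 0.469%, 0.0111% and 0.00531%, and it was the only ASV found in all 3 libraries of that group. Its lowest share above 0 and its highest share in the series both lay in this group.

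**Figure D2:**
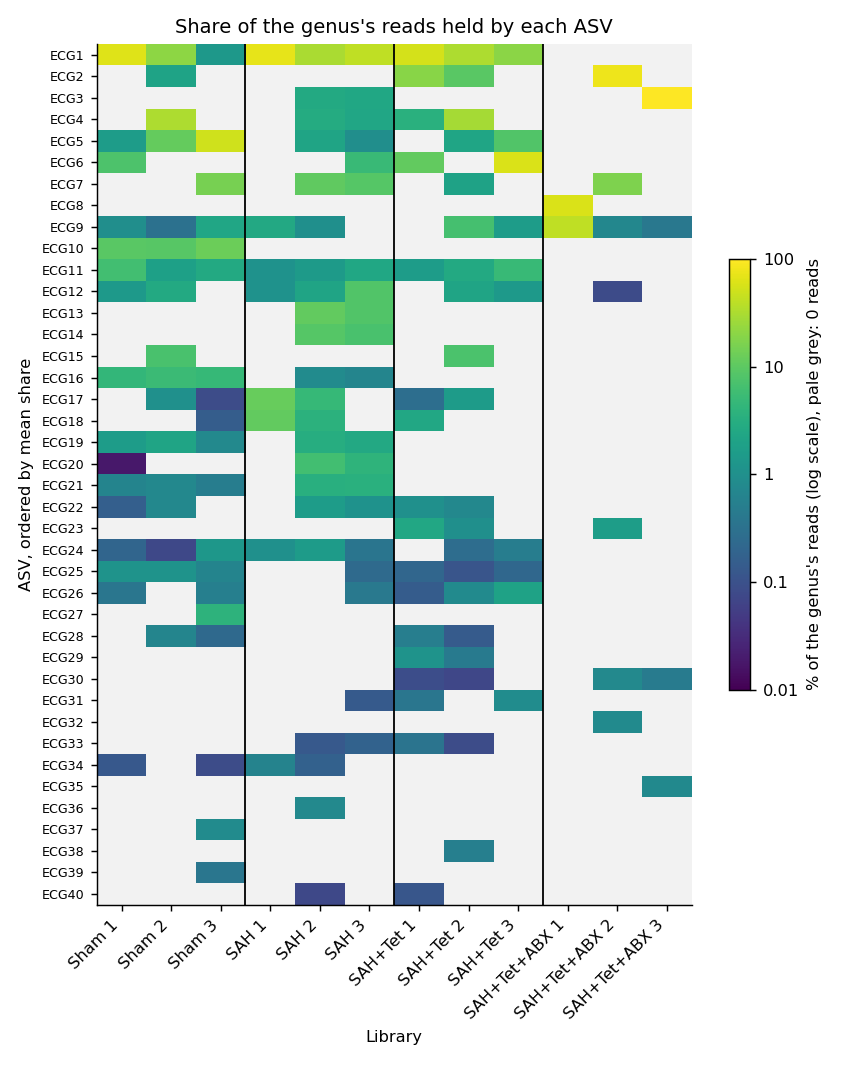
Share of the genus's reads (%, log colour scale) held by each of the 40 member ASVs with at least 10 reads, in each of the 12 libraries, with 0 reads in pale grey and black lines between groups. ECG1 and ECG11 fill all 9 libraries without antibiotics and none with them, ECG10 fills only the 3 Sham libraries, and the SAH+Tet+ABX columns are mostly empty.

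SAH was compared with Sham first, which sets the haemorrhage against the operation. The groups shared 19 ASVs, 63.3% of the 30 found in Sham and 52.8% of the 36 found in SAH. Of the genus's reads in Sham, 15.4% ± 5.20 lay in ASVs not found in SAH, and of those in SAH, 13.9% ± 12.3 lay in ASVs not found in Sham. Most reads of either group thus belonged to ASVs found in both.

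ECG10 was the clearest Sham variant. It was at 0.104%, 0.174% and 0.142% in Sham (518, 869 and 737 reads) and had 0 reads in the 9 other libraries, which puts it at least 172-fold lower in SAH than in Sham (3 reads per library as the floor). ECG16 was at 0.0490%, 0.102% and 0.0541% in Sham and at 0, 0.0109% and 0.0123% in SAH, 8.83-fold lower on the means. ECG25 was at 0.0125%, 0.0213% and 0.00731% in Sham and at 0, 0 and 0.00446% in SAH, 9.22-fold lower on the means.

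In these 3 ASVs the Sham and SAH libraries did not overlap, and all 3 were lower in SAH. They are 14.3% of the 21 members that passed the filter (3 or more libraries of the fit with 10 or more reads). Of all 2283 ASVs that passed, 30.7% did not overlap, so nothing is read from the members' share. ECG10 passed the filter only through the Sham libraries, where it is high, and so had to differ. By edgeR's quasi-likelihood test with Benjamini-Hochberg adjustment over all ASVs tested, 0 members and 0 of the 2283 ASVs were called (0%), while 553 ASVs had an unadjusted p below 0.05. DESeq2 called 404 of all ASVs and 2 members, and limma on centred log-ratios 270 and 1.

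Within SAH the library of the lower depth class stood apart. SAH 2 and SAH 3 shared 16 member ASVs, of which 12 were not found in SAH 1. These include ECG13 at 0.140% and 0.151% and ECG14 at 0.115% and 0.128%, which were found nowhere else in the series. Of the genus's reads, 54.2% in SAH 2 and 47.5% in SAH 3 lay in ASVs with 0 reads in SAH 1. ECG17 was at 0.114%, 0.0613% and 0 in SAH 1, 2 and 3, and ECG18 at 0.109%, 0.0485% and 0. Shared variants thus linked SAH 2 with each of the other SAH libraries, and the part of depth class was not tested.

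SAH+Tet was then compared with SAH, which sets tetrandrine against its absence. The groups shared 17 ASVs, 47.2% of those found in SAH and 56.7% of those found in SAH+Tet. ASVs not found in SAH+Tet held 22.0% ± 18.9 of the genus's reads in SAH, and ASVs not found in SAH held 14.3% ± 12.6 in SAH+Tet. Among the members that passed the filter, ECG24 alone separated the libraries. It was at 0.0101%, 0.0203% and 0.00668% in SAH and at 0, 0.00368% and 0.00396% in SAH+Tet, 4.86-fold lower on the means.

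That is 1 of 21 members (4.76%), beside 16% of all ASVs tested. By edgeR's quasi-likelihood test with Benjamini-Hochberg adjustment, 0 members and 0 of 2283 ASVs were called (0%), and 474 ASVs had an unadjusted p below 0.05. DESeq2 called 301 of all ASVs and 4 members, and limma 112 and 0. ECG10, which was found only in Sham, had 0 reads in all SAH+Tet libraries too.

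SAH+Tet+ABX was compared with SAH+Tet, which sets antibiotics against their absence on the same background. The groups shared 6 ASVs, 20% of the 30 in SAH+Tet and 54.5% of the 11 in SAH+Tet+ABX. ASVs absent from SAH+Tet+ABX held 84.5% ± 10.8 of the genus's reads in SAH+Tet. ASVs absent from SAH+Tet held 53.0% ± 49.4 of those in SAH+Tet+ABX. The wide SD reflects that the share was 0.815% in the lowest SAH+Tet+ABX library and 99.1% in the highest.

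The ASVs not found in SAH+Tet+ABX include those that all other libraries had in common. ECG1, at 0.474% ± 0.325 in SAH+Tet, was at least 362-fold lower. ECG11 was at 0.0672%, 0.0355% and 0.0312% in Sham, at 0.0109%, 0.0199% and 0.0446% in SAH, at 0.0240%, 0.0370% and 0.0396% in SAH+Tet and at 0 reads in SAH+Tet+ABX, at least 25.6-fold lower than in SAH+Tet. ECG1 and ECG11 were the 2 ASVs found in all 9 libraries without antibiotics. ECG26, at 0.00218%, 0.0112% and 0.0163% in SAH+Tet, had 0 reads in SAH+Tet+ABX and was at least 7.56-fold lower.

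With ECG25, whose bound was at least 1.62-fold, 4 of 23 members that passed the filter did not overlap, all lower in SAH+Tet+ABX. That is 17.4%, beside 22.8% of the 2394 ASVs tested. Of those 2394 ASVs, edgeR's quasi-likelihood test with Benjamini-Hochberg adjustment called 247 (10.3%), and of the members 2, ECG1 and ECG11, both lower. With depth class as a term it called the same 2 members among 145 ASVs, with the replicate number as a block ECG1 alone among 99, and without SAH+Tet+ABX 3 it called 0 members and 0 ASVs. SAH+Tet 3, the SAH+Tet library of the lower depth class, held ECG1 and ECG11. The genus was selected on its turnover, so these calls are no support for it and nothing is read from the members' share. ECG2, ECG3 and ECG8, the ASVs that filled the antibiotic libraries, were each high in 1 library of 3 and so did not separate the groups.

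With antibiotics the genus, like the whole library, held fewer ASVs than without. Sham libraries held 16, 17 and 23 of them and SAH libraries 9, 29 and 22. SAH+Tet libraries held 19, 24 and 10 and those with antibiotics 2, 7 and 5. SAH 1 and SAH+Tet 3, of the lower depth class, were the lowest of their groups. Thinned to 211450 reads per library, the expected number was 4.67 ± 2.52 with antibiotics, against 18.1 ± 3.37 for Sham, 18.8 ± 8.83 for SAH and 17.0 ± 6.27 for SAH+Tet. The SAH+Tet+ABX libraries lay below all others on this measure too. SAH 1 at 8.98 and SAH+Tet 3 at 10.0 were still the lowest of their groups, so thinning did not remove the difference between depth classes there. All SAH+Tet+ABX libraries are in the lower class, and the part of depth class in their low number was not tested.

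At the same depth the whole library held 573 ± 117 ASVs with antibiotics, against 2271 ± 61.9 for Sham, 1756 ± 522 for SAH and 2066 ± 642 for SAH+Tet. The genus thus made up 0.774% of a library's ASVs on average with antibiotics, and 0.794%, 1.02% and 0.812% in the other groups in that order. Its ASV number was lower with antibiotics in about the proportion of the library's, while its summed share was not.

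The inverse Simpson index inside the genus, which equals the number of ASVs if all are equally abundant, had its lowest mean in SAH+Tet+ABX. It cannot exceed the number of ASVs, so it reflects that number as well as evenness. In SAH+Tet+ABX 1, with only 2 ASVs, it was 1.94, so these were nearly even. Its mean was 1.50 ± 0.451 in SAH+Tet+ABX, against 3.67 ± 1.63 for Sham, 4.64 ± 2.66 for SAH and 3.32 ± 1.22 for SAH+Tet. The leading ASV held 78.7% ± 19.6 of the genus's reads in SAH+Tet+ABX, and 49.4% ± 15.7, 47.8% ± 20.7 and 49.2% ± 14.5 in the other groups in that order. On the former measure the SAH+Tet+ABX libraries overlapped with SAH 1. On the latter they overlapped with all 3 other groups, since the leading ASV held 59.0% in SAH+Tet+ABX 1, below the 63.9% of Sham 1, the 70.9% of SAH 1 and the 60.0% of SAH+Tet 3.

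**Figure D3:**
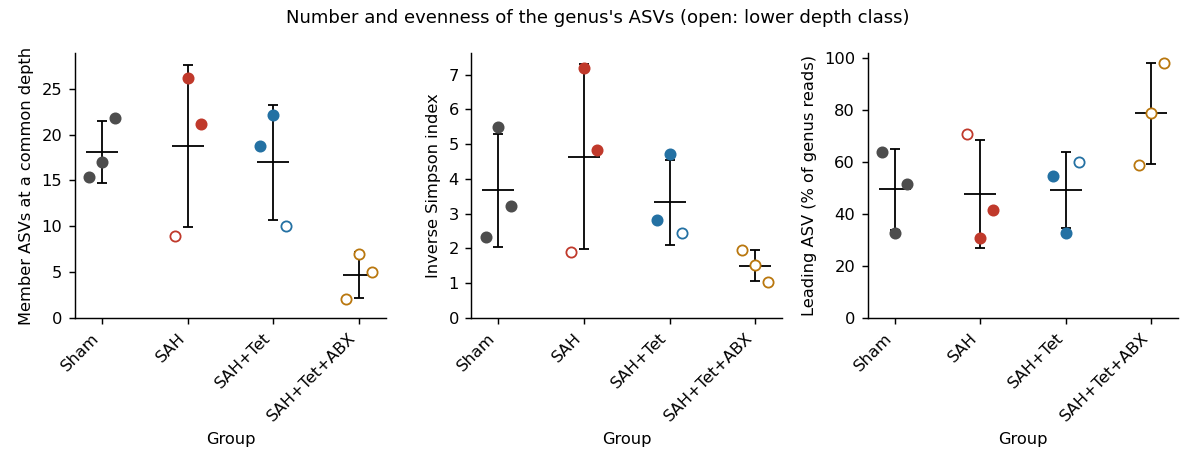
Expected number of member ASVs at 211450 reads (left), inverse Simpson index inside the genus (middle) and the leading ASV's percentage of the genus's reads (right), by group. Points are libraries (open for the lower depth class), and bars are the mean and SD of 3 libraries, with SAH+Tet+ABX lowest in ASV number (4.67 against 17.0 to 18.8).

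Distances between libraries put the turnover in 1 value. The Bray-Curtis distance of the ASV make-up inside the genus is 0 for equal proportions and 1 where no ASV is shared. Between groups it averaged 0.803 ± 0.208 over 54 pairs of libraries, and within groups 0.686 ± 0.229 over 12 pairs. Pairs share libraries and are not independent, so these SDs only describe the spread.

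Where no antibiotics were given, the mean distances within Sham and within SAH+Tet were similar to those between groups, while the mean within SAH was lower. Within Sham the mean distance was 0.674 ± 0.103, within SAH 0.453 ± 0.187 and within SAH+Tet 0.624 ± 0.111 (3 pairs each). Between Sham and SAH it was 0.667 ± 0.193, between SAH and SAH+Tet 0.598 ± 0.114 and between Sham and SAH+Tet 0.663 ± 0.221 (9 pairs each). The ranges of within-group and between-group pairs overlapped in each case. Over all ASVs of the library the mean distances were 0.451 within Sham, 0.484 within SAH and 0.553 within SAH+Tet. Between groups they were 0.655 (Sham and SAH), 0.643 (SAH and SAH+Tet) and 0.626 (Sham and SAH+Tet), each above the within-group means. The closest pair of the series was SAH 2 with SAH 3 at 0.236.

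With antibiotics the proportions of the ASVs had little in common with those of other libraries. ASVs could still be shared, as SAH+Tet+ABX 2 had 6 in common with SAH+Tet 2. It also lay at 0.786 from SAH+Tet 1. The 3 SAH+Tet+ABX libraries were 0.993 ± 0.00236 apart from each other, and 0.950 ± 0.0757 from SAH+Tet, 0.974 ± 0.0503 from Sham and 0.966 ± 0.0396 from SAH. Over all ASVs of the library, the SAH+Tet+ABX libraries were 0.629 ± 0.186 apart from each other, 0.781 ± 0.0319 from SAH+Tet, 0.764 ± 0.0355 from Sham and 0.748 ± 0.0315 from SAH. Inside the genus these distances were thus larger than over the whole library.

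**Figure D4:**
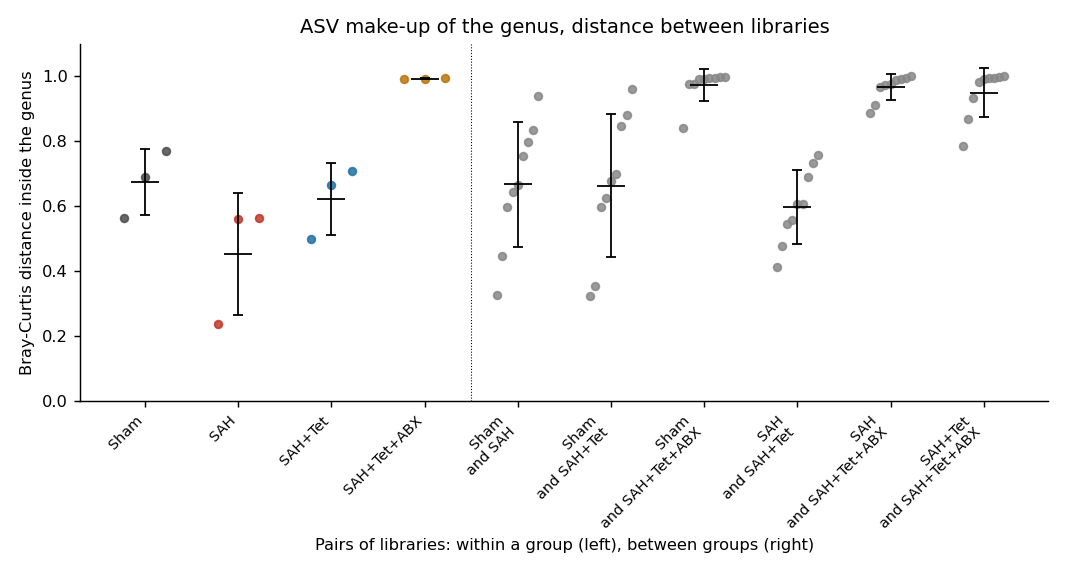
Bray-Curtis distance of the ASV make-up inside the genus for every pair of libraries, within each group (left of the dotted line) and between groups (right). Points are pairs of libraries and bars are the mean and SD over the pairs, and pairs that involve SAH+Tet+ABX sit near 1 (means 0.950 to 0.993) while the others average 0.453 to 0.674.

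The steadiness of the sum and the turnover were set beside the same measures in all 58 genus-level features with at least 20 ASVs. The coefficient of variation (CV) of the 4 group means was 5.66% for the genus, the lowest of the 58, whose median was 62.1%. The next were [Eubacterium]_xylanophilum_group at 17.9% and Christensenellaceae_R-7_group at 19.9%. Over the 12 libraries its CV was 24.6%, also the lowest, with a median of 75.9%. The genus was chosen for this steadiness, so its place is a description.

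The place depends on the antibiotic group and on the denominator. Over the 9 libraries without antibiotics the CV of the group means was 6.90% (median 40.5%), and A2 and Alistipes were lower. As a share of Firmicutes reads it was 9.83%, and of 39 Firmicutes features [Eubacterium]_xylanophilum_group was lower. The same genus was also lower without Sham 3. The between-group distance of 0.803 was not extreme, with 37 of the 58 features lower and 20 higher (median 0.719). Other features lack reads in some libraries, mostly with antibiotics, and 33 had all 54 pairs. With the genus recomputed over the same pairs as each feature, 31 were lower and 26 higher. The within-group distance of 0.686 was exceeded by 7 features (median 0.534). It includes 3 SAH+Tet+ABX pairs with a mean of 0.993, which features with no reads in those libraries lack. The genus was not recomputed over the same within-group pairs, so this place does not compare like with like.

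Synchrony joins the steadiness and the turnover. It is the variance of the sum over the libraries divided by the squared sum of the ASVs' SDs, so that it is 1 where all ASVs move together and 0 where they offset each other fully. ASVs that vary independently of each other also give values well below 1, so a low value need not mean offsetting. Synchrony was 0.0168 for the genus, the lowest of the 58 features (median 0.212). The next were Lachnospiraceae without a genus name at 0.0389 and [Eubacterium]_xylanophilum_group at 0.0532. The genus was chosen for a steady sum and for turnover, the parts of this ratio, so its place is a description. Over the 9 libraries without antibiotics it was 0.0494, with 4 features lower (median 0.170). The low value over all libraries thus leans on SAH+Tet+ABX, where the total was about the same and the leading ASVs were others.

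The 3 named genera closest in number of ASVs had sums that differed more between groups. Roseburia (59 ASVs, a butyrate producer) held 2.44% ± 0.684 of Sham reads, 3.29% ± 1.86 of SAH reads, 0.925% ± 0.519 of SAH+Tet reads and 0.00399% ± 0.00690 with antibiotics. Prevotella (67 ASVs, users of plant polysaccharides) held 0.802% ± 0.456, 0.911% ± 0.837, 1.23% ± 1.06 and 0.000712% ± 0.00123 in that order. UCG-005 (55 ASVs, of the same order as the genus) held 2.10% ± 0.503, 2.18% ± 0.895, 2.75% ± 1.15 and 0.0419% ± 0.0472 likewise. All 3 were lower in each SAH+Tet+ABX library than in any other library, while [Eubacterium]_coprostanoligenes_group was at 1.34% ± 0.216.

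Their turnover between groups was of like size. The mean between-group distance was 0.768 in Roseburia and 0.708 in Prevotella over the 36 pairs in which both libraries had reads of them, where [Eubacterium]_coprostanoligenes_group had 0.711. It was 0.704 in UCG-005 over 45 pairs, against 0.767. Their synchrony was 0.361, 0.449 and 0.270. These values differ from the 0.0168 of the genus with like numbers of ASVs. However, the shares of these genera were far lower with antibiotics. Their synchrony over the 9 libraries without antibiotics is not given.

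**Figure D5:**
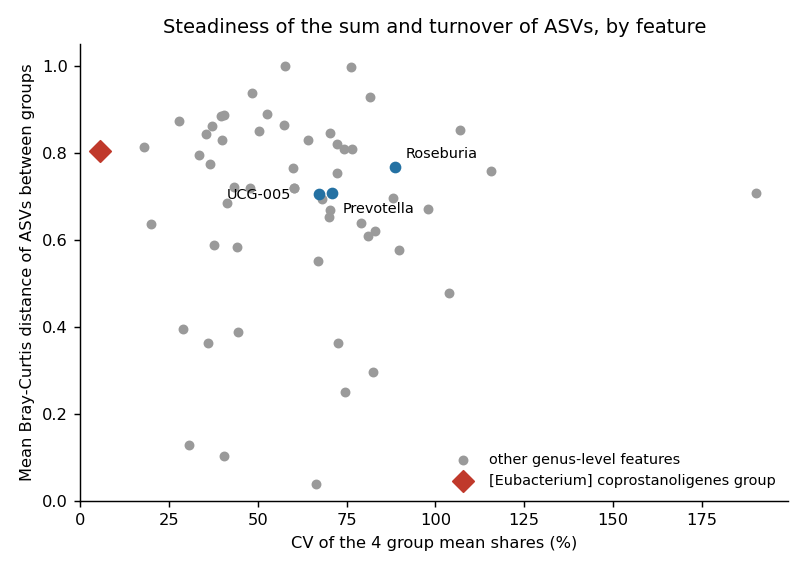
CV of the 4 group mean shares (%, x axis) and mean between-group Bray-Curtis distance of the ASV make-up (y axis) for the 58 genus-level features with at least 20 ASVs. The genus (red diamond) lies at 5.66% and 0.803, left of all other features, with each feature's distance taken over the pairs of libraries in which it had reads, and the 3 genera nearest in ASV number are in blue.

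Among 86 named genera with a mean share of at least 0.05%, the shares most like those of the genus over the 12 libraries were those of Prevotellaceae_Ga6A1_group (Pearson r = 0.72, Spearman rho = 0.64 on log2 of the percentage plus 0.0005). Then came dgA-11_gut_group (0.62 and 0.55), Bifidobacterium (0.56 and 0.45), Rikenellaceae_RC9_gut_group (0.55 and 0.52) and Prevotellaceae_UCG-003 (0.52 and 0.49). All are shares of the same libraries, and the values were picked as the highest of 86.

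Other bacteria with known steps in sterol or bile acid turnover were followed in a list of 19 genus names, of which 14 were found. Ligilactobacillus, Limosilactobacillus, Extibacter, Peptacetobacter and Eggerthella were not found under these names. Bile salt hydrolases cut bile salts to free bile acids, dehydroxylating bacteria turn these into secondary bile acids, and hydroxysteroid dehydrogenases change their hydroxyl groups. Together they took 17.4% ± 4.31 of Sham reads, 22.1% ± 6.46 of SAH reads, 14.2% ± 2.92 of SAH+Tet reads and 22.3% ± 12.0 with antibiotics, mostly as Lactobacillus (11.4% ± 4.37, 17.4% ± 8.38, 10.7% ± 4.25 and 19.0% ± 13.7).

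For SAH against Sham, edgeR's quasi-likelihood test with Benjamini-Hochberg adjustment called 0 of the 12 list genera tested and 0 of 187 genus-level features (0%), and 4 and 55 had an unadjusted p below 0.05. On the means, 9 list genera were higher and 3 lower in SAH, with a median log2 ratio of 0.64 against -0.05 over all 187 features. The 9 include Collinsella, which passed the filter through SAH alone and so had to be higher. Turicibacter, a bile salt hydrolase carrier, was at 2.10% ± 0.0925 in Sham and 0.368% ± 0.289 in SAH (edgeR adjusted p = 0.115). Collinsella, which carries hydroxysteroid dehydrogenases, was at 0.0105%, 0.0109% and 0.0107% in SAH and at 0 reads in all other libraries. It passed the filter only through the SAH libraries, so no test of it is given. Escherichia-Shigella was at 0.00333% ± 0.00155 in Sham and 0.145% ± 0.117 in SAH (edgeR adjusted p = 0.0927).

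With depth class as a term, edgeR called 4 list genera in this comparison, among 26 of 187 features. These were Enterococcus and Escherichia-Shigella higher and Turicibacter lower in SAH, and Collinsella, whose direction was fixed by the filter and whose call is no support. DESeq2 called the same 4 among 50 features, and limma the same without Enterococcus among 9. Bacteroides, some strains of which reduce cholesterol to coprostanol, was at 1.05% ± 0.677 in Sham and 1.87% ± 0.321 in SAH (edgeR adjusted p = 0.237). The [Eubacterium]_coprostanoligenes_group, the other coprostanol-linked name, stood at 1.38% and 1.37%.

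For SAH+Tet against SAH, edgeR's adjusted test called 0 of 12 list genera and 0 of 187 features (0%), and 4 and 33 had an unadjusted p below 0.05. On the means there were 9 list genera lower and 3 higher and a median log2 ratio of -1.17 against 0.32 over all features. The 9 include Collinsella, which had to be lower for the same reason. Bacteroides was at 0.929% ± 0.285 in SAH+Tet (edgeR adjusted p = 0.284), and Bifidobacterium went from 0.674% ± 0.504 to 0.0610% ± 0.0606 (edgeR adjusted p = 0.165). DESeq2 called 5 list genera among 32 of 187 features: Bilophila higher, Bifidobacterium, Escherichia-Shigella and Parabacteroides lower, and Collinsella, which passed the filter through SAH alone. Limma called 1 of 187, again Collinsella. This comparison and the one before share the SAH libraries.

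For SAH+Tet+ABX against SAH+Tet, edgeR called 3 of 13 list genera, beside 74 of 195 features (37.9%). The 3 include [Ruminococcus]_gnavus_group, whose direction was fixed by the filter. Bilophila, which uses taurine freed from bile salts, was at 0.0238%, 0.0209% and 0.0422% in SAH+Tet and had 0 reads in SAH+Tet+ABX, at least 22.1-fold lower (edgeR adjusted p = 0.00304). Parabacteroides, a bile salt hydrolase carrier, fell from 0.0671% ± 0.0265 to 0.000272% ± 0.000472 (log2 fold change -7.60 ± 1.34 SE, edgeR adjusted p = 0.00220). Both were lower in every SAH+Tet+ABX library than in every SAH+Tet library.

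[Ruminococcus]_gnavus_group, which carries hydroxysteroid dehydrogenases, had 0 reads in the other 9 libraries and 0.0936%, 0.342% and 2.06% in SAH+Tet+ABX, at least 978-fold higher. It passed the filter only through the SAH+Tet+ABX libraries, where it is high, so it had to differ. Its call is no support, and no p-value of it is given. With the replicate number as a block, or with depth class as a term, edgeR did not call it. Without any 1 of these libraries it was not tested. On the means, 6 list genera were higher and 6 lower, with a median log2 ratio of -0.02 against -1.35 over the 192 features with reads in these groups. The 6 higher include [Ruminococcus]_gnavus_group, which had to be higher. Bacteroides was at 0.337% ± 0.372 in SAH+Tet+ABX (edgeR adjusted p = 0.257), below its level in SAH+Tet on the means, and the summed share of [Eubacterium]_coprostanoligenes_group was at 1.34% there.

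The remaining genera of the list did not pass edgeR's adjusted test with group as the only term in any of the 3 comparisons. Clostridium_sensu_stricto_1, a bile salt hydrolase carrier, held 2.05% ± 0.778 of Sham reads, 1.03% ± 0.729 of SAH reads, 1.09% ± 0.744 of SAH+Tet reads and 0.104% ± 0.146 with antibiotics. Alistipes was at 0.220% ± 0.0184, 0.243% ± 0.0563, 0.240% ± 0.101 and 0.0793% ± 0.0548 in that order. Both had their lowest mean with antibiotics. Enterococcus was at 0.000516% ± 0.000726, 0.100% ± 0.0854, 0.00448% ± 0.00399 and 0.00506% ± 0.00154, and was highest in SAH 2 and SAH 3. With depth class as a term edgeR called it higher in SAH than in Sham (adjusted p = 0.00545). It was also called higher in SAH+Tet+ABX than in SAH+Tet (log2 fold change 6.13, against 0.31 without the term, edgeR adjusted p = 0.0218). Sham has only the higher class and SAH+Tet+ABX only the lower, so the depth term rests on SAH 1 (0.00201%) and SAH+Tet 3 (0 reads). The 6.13 is therefore an extrapolation, while the means of these groups are close. Lachnoclostridium, which holds some dehydroxylating species, was at 0.0533% ± 0.0207, 0.0910% ± 0.0726, 0.0357% ± 0.00867 and 0.132% ± 0.0588. Gordonibacter was found in 3 libraries only, at most at 0.00440%, and was not tested.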

How the data were processed

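The authors deposited unscaled read counts per ASV with a lineage, in a series table whose columns equalled the per-sample tables in 12 of 12 libraries. Reads were handled with fastp and cutadapt, per the submitters' processing notes, without versions. Neither the primers and 16S region nor the denoiser, chimera removal or taxonomy source is named in what was read here, and each can change how many ASVs a genus holds and how they are named. The 2 Eukaryota ASVs were left out, which left 7238 ASVs in 384 genus-level features (303 with a genus name). Samples were grouped by their treatment labels.

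Shares, Bray-Curtis distances, expected ASV numbers and synchrony were computed with Python 3.11.15 and pandas 2.3.3. The expected ASV number was checked against a simulation, and the distance and synchrony on small examples with known answers. Counts of all ASVs, and of all genus-level features, were fitted with edgeR 4.0.16 in R 4.3.3 (TMM, quasi-likelihood, group as the only term, 10 or more reads in 3 or more libraries, adjusted p below 0.05). SAH against Sham and SAH+Tet against SAH came from a fit of the 9 libraries without antibiotics, the other comparison from all 12. The SE given is the log2 fold change divided by the root of its F statistic. DESeq2 1.42.0 and limma 3.58.1 were alternatives. A group at 0 reads was set to 3 reads per library for a bound.

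The ASVs named are the 10 with the highest mean of the group means and, per comparison, up to 3 rises and 3 falls among members whose groups did not overlap. Beyond this rule, ECG12 to ECG14, ECG17, ECG18 and the features with the lowest CV or synchrony were named after their values were seen. The genus, the lists and the tests were chosen with earlier results of these data known.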

Additional observations from a re-analysis of the deposited data

How the results depend on the processing

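Of the values recomputed under alternatives other than leaving out a library, 72 kept within the spread or within 1.5 times and 33 moved. The summed share moved with the denominator: of Firmicutes reads it was 1.89%, 2.17%, 1.78% and 2.17% in the 4 groups, and of genus-named reads 1.73% in SAH+Tet+ABX. The lower-class library of SAH+Tet alone gave 0.800%. The log2 ratio was -0.50 for SAH against Sham with centred log-ratios. For SAH+Tet+ABX against SAH+Tet it was 0.81 with DESeq2 size factors, 2.50 with centred log-ratios and 0.75 within the lower depth class, where SAH+Tet has 1 library. On presence and absence the distance between these groups was 0.839. Synchrony was 0.0494 without antibiotics, 0.0369 in the higher depth class and 0.0290 over filtered ASVs.

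Member ASVs called for SAH against Sham were 2 with DESeq2 (404 of 2283 ASVs), 1 with limma (270 of 2283), 4 without a filter (160 of 6720) and 1 with only the 2 groups (308 of 1703), for SAH+Tet against SAH 4 with DESeq2 (301 of 2283) and 4 without a filter (90 of 6720), and with antibiotics against SAH+Tet 9 with DESeq2 (886 of 2394) and 7 without a filter (281 of 7238). List genera called were 4 with DESeq2 (50 of 187 features), 3 with limma (9), 4 with a depth term (26) and 2 in the higher class (24 of 182) for SAH against Sham, 5 and 1 with DESeq2 (32) and limma (1) for SAH+Tet against SAH, and 6 and 7 (105 and 75 of 195) with antibiotics against SAH+Tet. The features with a lower CV than the genus were 2 over 9 libraries and 1 over Firmicutes (alternatives added after the data were seen, as were the distances over the same pairs). Of all ASVs, 159 were called without TMM, 145 with a depth term and 99 with a replicate block, against 247, for SAH+Tet+ABX against SAH+Tet. It was 69, 79 and 0 without SAH+Tet+ABX 1, 2 and 3, and 144, 146 and 493 without SAH+Tet 1, 2 and 3. Only the 2 groups gave 426. For genus-level features (74) it was 45 with a depth term, 45 with the block and 43 with only the 2 groups. The causes were not tested. The higher depth class could not be fitted there, because it holds no SAH+Tet+ABX library.

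Leaving out each library in turn gave shares of 1.12% to 1.52% in Sham, 1.14% to 1.56% in SAH, 1.09% to 1.43% in SAH+Tet and 1.23% to 1.45% in SAH+Tet+ABX, and 16.2 to 19.4, 15.1 to 23.7, 14.4 to 20.5 and 3.50 to 6.00 ASVs. The log2 ratios ran from -0.27 to 0.29, -0.36 to 0.09 and -0.09 to 0.30, so each sign turned. The distances ran from 0.572 to 0.772, 0.534 to 0.648 and 0.927 to 0.985, and synchrony from 0.0134 to 0.0238. Member calls stayed at 0 and 0, and ran from 0 to 2 for antibiotics (0 without SAH+Tet+ABX 3, lowest edgeR adjusted p 0.0508). List calls ran from 0 to 1 (Escherichia-Shigella without SAH 1), stayed at 0, and ran from 2 to 3. The features with a lower CV ran from 0 to 1.

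Same-numbered libraries did not deviate together in every pair (correlations 0.08, 0.13 and -0.01 for SAH against Sham, -0.59, 0.56 and -0.46 for SAH+Tet against SAH, -0.02, 0.03 and 0.13 with antibiotics). The labels give no meaning for the number, and whether it marks a pair or a block is not known. With the replicate block the log2 ratios were -0.007, -0.18 and 0.18, and 1 member was called for SAH+Tet+ABX against SAH+Tet in place of 2 (ECG11 was lost).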
